A study of Mus musculus with 6 samples.

Results

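Metallothionein and zinc transport genes were followed in primary microglia (PM). They are 10 genes of the 24411 in the count tables, chosen by symbol from a list: the metallothioneins Mt1 and Mt2, the metal-sensing transcription factor Mtf1, the zinc exporter family members Slc30a1, Slc30a5 and Slc30a7, and the zinc importer family members Slc39a1, Slc39a6, Slc39a10 and Slc39a14. All 10 passed the filter on low counts, with which 10133 genes were tested. RNA-seq of total RNA depleted of ribosomal RNA was carried out at 4-h, on 3 PM libraries that received GSK-J4 at 10 μM (the group GSK-J4) and 3 that received it together with LPS at 10 ng/ml (the group LPS + GSK-J4). GSK-J4 is an inhibitor of jumonji H3K27 demethylases, and lipopolysaccharide (LPS) is a bacterial ligand of Toll-like receptor 4. Every library carried GSK-J4, so each difference below is between the groups with and without LPS in its presence. PM without GSK-J4 were not analysed here. The groups also differed in ribosomal share and in markers of other cells, given below, which cannot be told apart from LPS in this design. PM were shaken off mixed glial cultures made from the pooled brains of 12 ICR mice at postnatal day 3. The methods describe the libraries of a group as biological replicates from independent RNA samples, and whether each came from its own pool of brains was not found in them.

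Zinc enters the cytosol through SLC39 (ZIP) proteins and leaves it, across the plasma membrane or into organelles, through SLC30 (ZnT) proteins. Metallothioneins are small cysteine-rich proteins that bind zinc and copper in the cytosol. When free zinc is high, MTF1 binds metal response elements in the promoters of Mt1, Mt2 and Slc30a1 and activates their transcription, while glucocorticoids induce the metallothioneins by another route and cytokines of the interleukin-6 type induce Slc39a14 in liver.

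The promoters of the textbook MTF1 targets Mt1, Mt2 and Slc30a1 are shown because the element is shared by genes with different outcomes, Slc30a1, which fell with LPS, and Mt1 and Mt2, which did not pass the test. The gene that rose, Slc39a14, had no entry in the promoter table. They are the RefSeq windows from 250 bases before to 50 bases after the start site, build GRCm38.p6, all on the + strand, at chr8:94178839-94179138 for Mt1, chr8:94172368-94172667 for Mt2 and chr1:191906531-191906830 for Slc30a1. Capitals mark each match to the core of the metal response element, TGCACNC or TGCGCNC, on either strand.
Mt1: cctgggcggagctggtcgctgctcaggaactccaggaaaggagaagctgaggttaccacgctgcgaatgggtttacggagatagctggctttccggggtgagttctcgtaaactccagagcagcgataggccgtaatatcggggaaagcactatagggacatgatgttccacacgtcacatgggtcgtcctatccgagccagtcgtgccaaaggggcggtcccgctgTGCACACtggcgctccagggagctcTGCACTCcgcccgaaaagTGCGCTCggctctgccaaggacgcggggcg
Mt2: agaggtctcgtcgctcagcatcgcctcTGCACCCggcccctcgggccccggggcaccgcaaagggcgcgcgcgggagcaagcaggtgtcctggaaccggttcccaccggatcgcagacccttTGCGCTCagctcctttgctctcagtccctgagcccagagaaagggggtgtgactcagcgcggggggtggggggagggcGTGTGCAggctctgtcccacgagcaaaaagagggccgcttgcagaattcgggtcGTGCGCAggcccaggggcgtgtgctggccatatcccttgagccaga
Slc30a1: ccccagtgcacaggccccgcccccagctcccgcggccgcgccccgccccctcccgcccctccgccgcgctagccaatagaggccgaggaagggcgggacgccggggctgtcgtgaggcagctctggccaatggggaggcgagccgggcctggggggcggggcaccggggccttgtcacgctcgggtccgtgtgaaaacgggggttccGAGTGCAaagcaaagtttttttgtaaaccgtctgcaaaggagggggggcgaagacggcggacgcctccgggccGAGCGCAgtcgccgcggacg
The Mt1 window held 3 cores, which begin at positions -23, 3 and 21 with its RefSeq start site counted as 1, all on the strand of the gene. Cores outside the window printed for each gene, such as near another start site, were not counted. Mt2 held 4 cores, and those that begin at -223 and -128 lie on its own strand while those at -50 and 5 lie on the other. In the Slc30a1 window both of its 2 cores, at -43 and 31, lie on the other strand. Among 32851 RefSeq promoters of the same 300 bases, 7.11% held at least 2 cores, 1.97% at least 3 and 0.517% at least 4.

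A RefSeq window was given for 8 of the 10 genes. Besides the promoters printed above, that of Slc30a5 held 1 core, as did 25.7% of all promoters when those with more are counted too, and the windows of Mtf1, Slc30a7, Slc39a1 and Slc39a10 held 0. A match of these letters is a description and does not show a bound site.

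The libraries held 2597505 to 3472716 fragments assigned to genes. The 45S ribosomal transcript Rn45s took 25.6% ± 5.88 of them in GSK-J4 against 47.1% ± 1.15 in LPS + GSK-J4 (SD, n = 3). Levels are therefore given as CPM (counts for each 1000000 fragments assigned to genes) after TMM scaling, which sets the bulk of genes level between libraries, and a level of 3 counts was 0.673 to 1.24 CPM. Replicate 3 stood apart in each group in unscaled counts with Rn45s included. There the chi-square of its counts against the others was 5.81 to 12.5 per degree of freedom, compared with 2.12 and 2.32 between replicates 1 and 2. Rn45s took 22.17%, 22.34% and 32.44% of the counts in GSK-J4 replicates 1 to 3, and 48.06%, 45.83% and 47.45% in those of LPS + GSK-J4. The part of Rn45s in these chi-squares was not tested. The labelled cell type was present, with summed microglial markers at 4337 to 4456 CPM in GSK-J4 and 3528 to 3598 CPM in LPS + GSK-J4, where Csf1r and Cx3cr1 fell among 14 markers tested. Of all genes tested, 5.46% fell at the same limit, an adjusted p of at most 0.01 by edgeR. None of the 14 markers rose at it, and Trem2 and Fcrls narrowly missed it in their fall (adjusted p = 0.0102 and 0.01003 by edgeR). The median log2 fold change of the 14 was -0.35, against -0.00064 for all genes tested. Of the markers of resting microglia, P2ry12 averaged 13.2 and 9.21 CPM and Tmem119 5.01 and 2.66 CPM, and Siglech was at or near 0 in every library. Markers of other glia and neurons differed between the groups and are given beside the genes below. In bulk RNA, fewer cells of a type cannot be told apart from less RNA per cell.

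Of the 10 genes, Slc39a14 rose and Slc30a1 fell with LPS at an adjusted p of at most 0.01 (edgeR quasi-likelihood test, Benjamini-Hochberg over 10133 genes), and the other 8 did not pass. Over all genes tested, 8.42% rose and 5.46% fell at this threshold, so that 1 of 10 in each direction was near the background. At an adjusted p of at most 0.05, 3 of the 10 were higher with LPS against a background of 13.7%, and 1 was lower against 9.91%. The 0 genes of the 10 that also passed a fold limit of 1.5 on the log2 scale stand beside 3.76% of all genes in either direction. By unadjusted p under 0.05, edgeR had 3531 genes in all. The median log2 fold change of the 10 genes was 0.07, and that of all tested genes was -0.00064. In 3 of the 10 every LPS + GSK-J4 library was above every GSK-J4 library, which was so for 19.8% of all genes, and in 2 of the 10 every one was below, which was so for 18.4%. The plot of each gene by library shows these positions.

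**Figure D1:**
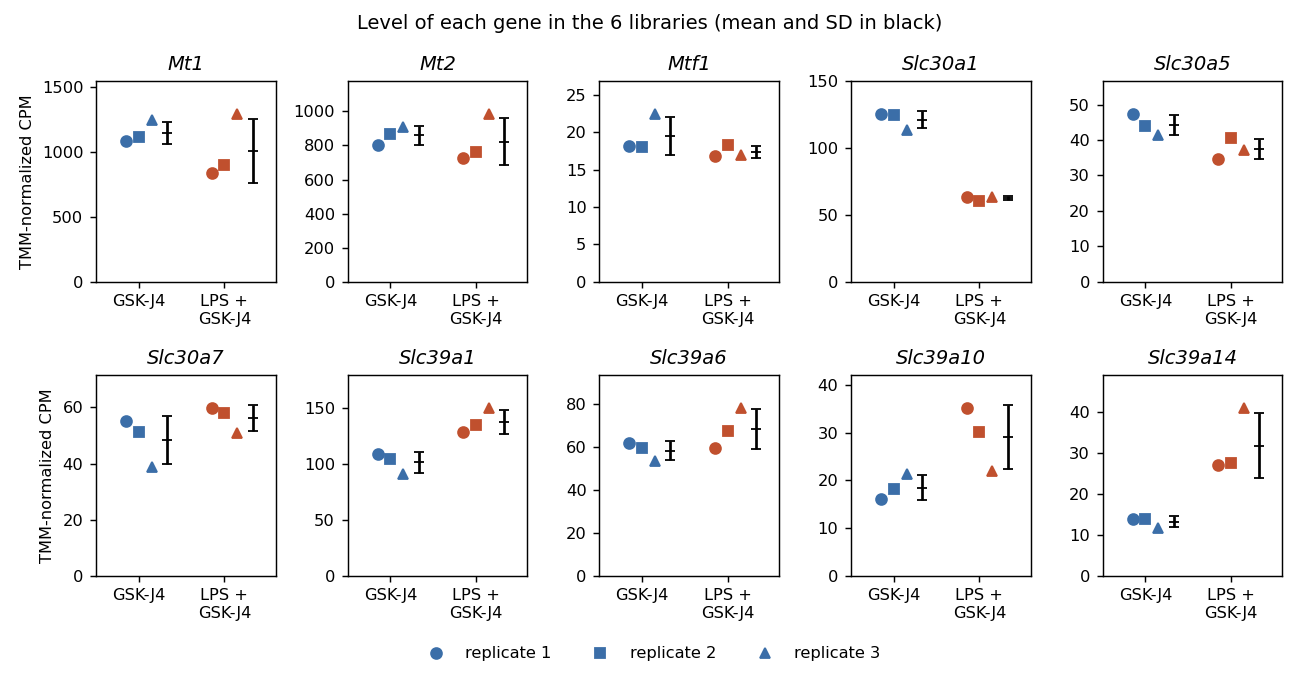
TMM-normalized CPM (vertical axis, from 0) of the 10 genes in the 3 GSK-J4 and 3 LPS + GSK-J4 libraries, with symbols for replicates and the mean and SD in black. Slc30a1 lies at 114 to 125 CPM without LPS and at 60.7 to 63.6 CPM with it, Slc39a14 at 11.7 to 13.9 and 26.9 to 40.9 CPM, and replicate 3 of LPS + GSK-J4 is the highest library for Mt1 and Mt2.

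The metallothionein genes lie side by side on chromosome 8 (mm10), Mt2 at 94172664-94173568 and Mt1 at 94179082-94180327, both on the + strand and 5513 bases apart. Mt1 was counted 4612, 4978 and 3399 times in GSK-J4 replicates 1 to 3 and 2146, 2353 and 3125 times in LPS + GSK-J4. After scaling these were 1088, 1117 and 1246 CPM against 838, 898 and 1290.5 CPM. Replicates 1 and 2 with LPS lay below all GSK-J4 libraries and replicate 3 lay above them, so the groups overlapped. The means were 1151 ± 84.1 and 1009 ± 246 CPM (SD, n = 3), with a log2 fold change of -0.19 (SE 0.14, 95% interval -0.49 to 0.11, adjusted p = 0.373 by edgeR). That result rested on LPS + GSK-J4 replicate 3, as without it Mt1 passed the test with a log2 fold change of -0.41 (adjusted p = 0.00293 by edgeR), and without replicate 3 of both groups with -0.34 (adjusted p = 0.00125).

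Mt2 had the same arrangement of libraries. Its levels were 800.1, 865 and 910.4 CPM in GSK-J4 and 726, 761 and 982 CPM in LPS + GSK-J4, again with replicate 3 the highest of all 6. The means of 858 ± 55.4 and 823 ± 139 CPM gave a log2 fold change of -0.06 (SE 0.12, 95% interval -0.32 to 0.20, adjusted p = 0.771 by edgeR). Without LPS + GSK-J4 replicate 3 it was -0.21 (adjusted p = 0.135), and without LPS + GSK-J4 replicate 1 it was 0.019, so no direction can be given for Mt2.

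Together, Mt1 and Mt2 took 0.351%, 0.361% and 0.392% of the counts outside ribosomal features in GSK-J4 against 0.284%, 0.301% and 0.400% in LPS + GSK-J4. These shares averaged 0.368 ± 0.0216 and 0.328 ± 0.0630 and were not separated by an exact two-sided permutation test (p = 0.4, where 3 against 3 libraries cannot go below 0.1). By mean CPM, Mt1 ranked 28 and Mt2 39 of 24411 genes in GSK-J4, and 38 and 58 in LPS + GSK-J4. All of these ranks are from cells that received the inhibitor. The study reports these metallothionein genes among those raised in PM by the inhibitor alone. Whether that rise bears on the ranks, or on the difference with LPS, was not tested, as PM without the inhibitor were not analysed here. The ratio of Mt1 to Mt2 counts, which no scaling can alter, was 1.36, 1.29 and 1.37 without LPS and 1.15, 1.18 and 1.31 with it, an overlap in which the lowest GSK-J4 library lay below the highest LPS + GSK-J4 one (exact two-sided permutation p = 0.2). The transcripts of the pair share at most 20 bases in a row, and reads were 101 bases long.

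Mtf1, on chromosome 4 at 124802104-124849800 (+ strand), had 41 to 80 counts in a library. Its levels were 18.2, 18.0 and 22.4 CPM in GSK-J4 and 16.8, 18.3 and 16.9 CPM in LPS + GSK-J4, and the groups overlapped. The log2 fold change was -0.15 (SE 0.19, 95% interval -0.57 to 0.26, adjusted p = 0.622 by edgeR), which does not show that the transcript of the factor was the same in both groups.

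Slc30a1 encodes ZnT1, the main zinc exporter of the plasma membrane, and lies on chromosome 1 at 191906767-191913247 (+ strand). It had 530, 555 and 310 counts in GSK-J4 and 163, 159 and 154 counts in LPS + GSK-J4. The levels of 125, 125 and 114 CPM without LPS and 63.6, 60.7 and 63.6 CPM with it did not overlap and varied little within a group. From 121 ± 6.44 to 62.6 ± 1.69 CPM (SD, n = 3), the transcript was 1.94-fold lower with LPS (log2 fold change -0.95, SE 0.12, 95% interval -1.22 to -0.69, adjusted p = 3.66e-05 by edgeR). It was lower in every setting tried, with log2 fold changes between -1.12 and -0.93 under 14 of them and -1.52 under total counts without TMM, or -0.96 relative to the median of all genes there. The antisense gene 1700034H15Rik overlaps 761 bases of it and stood at 0.867 and 1.56 CPM in the groups.

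The other 2 exporters on the list load zinc into the secretory pathway. Slc30a5 (ZnT5; chromosome 13, 100802648-100833427, - strand) stood at 47.2, 44.0 and 41.4 CPM in GSK-J4 and 34.7, 40.4 and 37.2 CPM in LPS + GSK-J4. Every LPS + GSK-J4 library was below every GSK-J4 library, but the log2 fold change of -0.24 (SE 0.15, 95% interval -0.56 to 0.08) did not pass (adjusted p = 0.274 by edgeR). Slc30a7 (ZnT7; chromosome 3, 115938973-116007406, - strand) had 55.2, 51.2 and 38.9 CPM without LPS and 59.7, 58.0 and 50.8 CPM with it. Its groups overlapped through replicate 3 of LPS + GSK-J4, and the log2 fold change was 0.20 (SE 0.16, 95% interval -0.13 to 0.54, adjusted p = 0.397).

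Slc39a14 encodes ZIP14, an importer of zinc that also carries iron and manganese, and lies on chromosome 14 at 70303469-70351425 (- strand). Its counts were 59, 62 and 32 in GSK-J4 against 69, 72 and 99 in LPS + GSK-J4. As levels these were 13.9, 13.9 and 11.7 CPM against 26.9, 27.5 and 40.9 CPM, with every LPS + GSK-J4 library higher and replicate 3 the highest. The means of 13.2 ± 1.26 and 31.8 ± 7.90 CPM (SD, n = 3) gave a 2.38-fold up-regulation (log2 fold change 1.25, SE 0.21, 95% interval 0.80 to 1.70, adjusted p = 0.000394 by edgeR). Scaled by total counts without TMM, under which the median of all genes was -0.57, the log2 fold change was 0.68 and the call was lost (adjusted p = 0.0171), although relative to that median it was 1.24.

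Slc39a1 (ZIP1; chromosome 3, 90248172-90253612, + strand), an importer of the plasma membrane found in most cells, had the highest level per kb of exon among the listed transporters. Its levels were 109, 104 and 90.9 CPM in GSK-J4 and 129, 135 and 149.9 CPM in LPS + GSK-J4, without overlap. The log2 fold change of 0.44 (SE 0.13, 95% interval 0.17 to 0.70) had an adjusted p of 0.0196 by edgeR and so passed at 0.05 but not at 0.01. The call at 0.05 was lost with DESeq2 (adjusted p = 0.0510) and without GSK-J4 replicate 2 (0.0657), GSK-J4 replicate 3 (0.0645) or LPS + GSK-J4 replicate 2 (0.0581). Scaled by total counts it was -0.14, or 0.43 relative to the median of all genes.

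Slc39a10 (ZIP10; chromosome 1, 46807544-46892852, - strand) is also an importer of the plasma membrane. It stood at 16.0, 18.2 and 21.3 CPM without LPS and at 35.1, 30.1 and 21.9 CPM with it, the closest libraries being the replicates numbered 3. The means were 18.5 ± 2.63 and 29.1 ± 6.69 CPM, and the log2 fold change of 0.67 (SE 0.21, 95% interval 0.23 to 1.11) had an adjusted p of 0.0279 by edgeR. The call turned on single libraries in both directions. Without LPS + GSK-J4 replicate 3 the log2 fold change was 0.83 and passed at 0.01 (adjusted p = 0.00178), whereas without replicate 1 or 2 of either group it was 0.51 to 0.65 and missed 0.05 as well (adjusted p = 0.125 and 0.0914 for GSK-J4, 0.126 and 0.0943 for LPS + GSK-J4), as it did with DESeq2 (adjusted p = 0.108).

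Slc39a6 (ZIP6; chromosome 18, 24579881-24603817, - strand), a close relative of Slc39a10, had 62.1, 59.5 and 53.5 CPM in GSK-J4 and 59.7, 67.5 and 78.0 CPM in LPS + GSK-J4. These overlapped, and the log2 fold change was 0.22 (SE 0.14, 95% interval -0.08 to 0.53, adjusted p = 0.292 by edgeR). The neighbouring gene Elp2 overlaps 952 bases of Slc39a6 on the opposite strand, which the stranded counts keep apart.

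The exporter and the importer that passed the test can be set against each other within a library, in a measure that does not depend on scaling. Slc39a14 had 0.111, 0.112 and 0.103 counts for each count of Slc30a1 in GSK-J4 against 0.423, 0.453 and 0.643 in LPS + GSK-J4. The pair was chosen after its values were seen, so the means of 0.109 ± 0.00479 and 0.506 ± 0.119 are a description without a test.

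**Figure D2:**
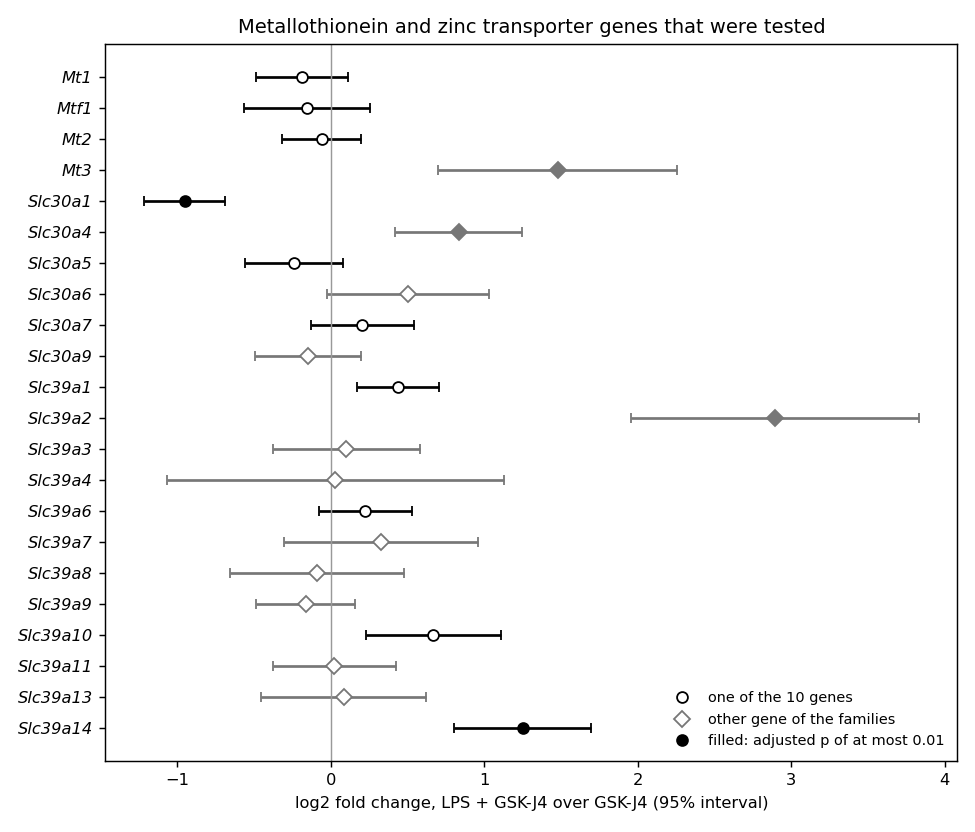
Log2 fold change of LPS + GSK-J4 over GSK-J4 (horizontal axis) with its 95% interval for the tested metallothionein and zinc transporter genes and Mtf1, circles for the 10 genes, diamonds for the rest of the families, filled where the adjusted p was at most 0.01. Slc30a1 at -0.95 is the only filled point below 0, and Slc39a14, Slc30a4, Mt3 and Slc39a2 are filled above it, in TMM-scaled data, of which Mt3 and Slc39a2 passed the filter on low counts only through the LPS + GSK-J4 libraries.

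Per kb of exon, the 2 metallothioneins were far above the transporters, as the plot of levels per length shows. In GSK-J4, Mt2 stood at 1459.8 ± 94.3 CPM per kb and Mt1 at 923 ± 67.5, followed by Slc39a1 at 42.9 ± 4.01, Slc30a1 at 23.1 ± 1.23 and Slc39a6 at 14.3 ± 1.07 CPM per kb. Below these came Slc30a5 at 6.06 ± 0.395, Slc30a7 at 4.36 ± 0.766, Slc39a10 at 3.03 ± 0.431, Mtf1 at 2.19 ± 0.279 and Slc39a14 at 1.25 ± 0.120 CPM per kb. No neighbours in this order overlapped over the 3 libraries. The order of Mt2 and Mt1 depends on the annotated lengths, 588 bases of merged exon for Mt2 and 1246 for Mt1. The merged exons of Mt1 cover its whole gene, and raw counts of Mt1 were above those of Mt2 in every library. With LPS the order differed in 2 places, as Slc39a6 (16.8 ± 2.26 CPM per kb) stood above Slc30a1 (11.9 ± 0.323) and Slc39a14 (3.01 ± 0.749) above Mtf1 (1.95 ± 0.0950). From Slc30a5 (5.13 ± 0.393) through Slc30a7 (5.05 ± 0.426) and Slc39a10 (4.77 ± 1.10) to Slc39a14, neighbours overlapped and their order is not settled.

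**Figure D3:**
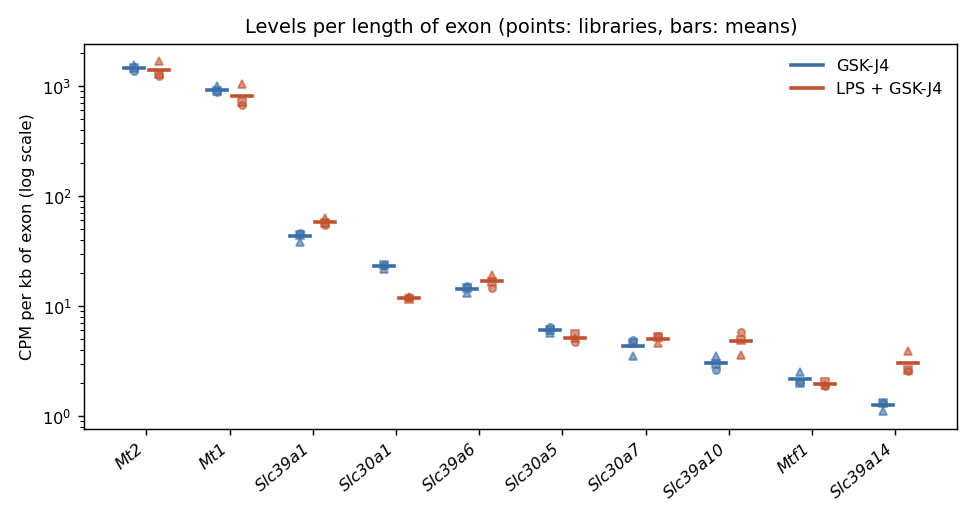
TMM-normalized CPM per kb of merged exon (vertical axis, log scale) of the 10 genes, ordered by their mean in GSK-J4, with symbols for libraries (circle, square and triangle for replicates 1, 2 and 3) and bars for means. Mt2 and Mt1 lie at 672 to 1669 CPM per kb and the other 8 genes at 1.11 to 63.4 CPM per kb. The order of Mt2 and Mt1 depends on their annotated exon lengths.

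Outside the 10 genes, the lists of metallothioneins, SLC30 and SLC39 transporters held 19 further genes, of which 12 were tested. In 9 of these the level that the filter on low counts asks for, 3.17 CPM by total counts, was reached in all libraries of both groups, and of those 9, Slc30a4 rose and 0 fell. That stands beside 8.42% and 5.46% of all genes tested. Slc30a4 (ZnT4), which moves zinc into vesicles, stood at 14.5 ± 1.87 and 26.1 ± 3.30 CPM (log2 fold change 0.83, SE 0.19, adjusted p = 0.00517 by edgeR). It passed under 8 of 15 alternative settings, and lost the call with DESeq2 (adjusted p = 0.0268) and with total counts. The call was also lost when any single library but LPS + GSK-J4 replicate 3 was left out (adjusted p = 0.0142 to 0.0264 by edgeR).

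Mt3 and Slc39a2 passed the filter only through the LPS + GSK-J4 libraries, where they were high, so their values are a description and are not counted as support. Mt3, the brain metallothionein, had 12, 9 and 17 counts in GSK-J4 against 23, 28 and 22 in LPS + GSK-J4, or 3.69 ± 2.24 and 9.58 ± 0.956 CPM. The importer Slc39a2 (ZIP2) had 4, 2 and 5 counts without LPS and 19, 21 and 17 with it, or 1.08 ± 0.701 and 7.48 ± 0.500 CPM, and its GSK-J4 libraries lay at or near 3 counts.

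The 9 genes tested besides Slc30a4, Mt3 and Slc39a2 had log2 fold changes between -0.16 and 0.50, and the lowest adjusted p was 0.165 by edgeR. Among SLC30 genes, Slc30a6 was at 0.50 and Slc30a9 at -0.15. Among SLC39 genes, Slc39a3 was at 0.10, Slc39a4 at 0.03, Slc39a7 at 0.32, Slc39a8 at -0.09, Slc39a9 at -0.16, Slc39a11 at 0.02 and Slc39a13 at 0.08. Another 7 (Mt4, Slc30a2, Slc30a3, Slc30a8, Slc30a10, Slc39a5 and Slc39a12) had at most 6 counts in any library and were not tested.

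By family, 1 of the 6 SLC30 genes tested rose (Slc30a4) and 1 fell (Slc30a1), and of the 10 SLC39 genes that reached the filter level in both groups 1 rose (Slc39a14) and 0 fell. The shares over all genes tested were 8.42% and 5.46%. The TMM-scaled levels of the 10 SLC30 genes in the tables summed to 281 to 334 CPM in GSK-J4 and 249 to 278 CPM in LPS + GSK-J4. Those of the 14 SLC39 genes summed to 297 to 308 CPM and 372 to 403 CPM, but to 313 to 402 and 306 to 331 CPM without TMM, where the groups overlapped.

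Markers of cells other than microglia were detected in these libraries. The summed markers of other glia and of neurons were higher with LPS, as were Slc30a4 and Slc39a14. The 8 astrocyte markers summed to 59.9 to 63.4 CPM in GSK-J4 and 142 to 174 CPM in LPS + GSK-J4, where 4 of 8 rose (Gfap, Aqp4, Gja1 and Sox9) and 0 fell. For this and the marker lists that follow, 8.42% of all genes tested rose and 5.46% fell. Markers of the oligodendrocyte lineage summed to 218 to 251 and 395 to 451 CPM, with 5 of 8 tested higher. Those of neurons summed to 19.6 to 23.8 and 46.7 to 52.7 CPM, with 3 of 3 tested higher (Map2, Tubb3 and Stmn2). The remaining neuron markers of the list were too low to be tested. Without and with LPS, Rbfox3 averaged 0.520 and 0.257 CPM, Syt1 0.590 and 0.138, and Snap25 0.0786 and 1.07. The neuron sum therefore rested mostly on the 3 tested genes, and whether neurons were present was not tested. Fibroblast and endothelium markers overlapped at 83.1 to 278 and 149 to 448 CPM, with Cdh5 higher among 6 tested and the endothelial Cldn5 at 0. Their part in the values of the zinc transporters was not tested.

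Lists around the metal genes were read in the same fit, by count and median. They stand beside 8.42% of all genes tested that rose, 5.46% that fell and a median of -0.00064. In lists this short, 1 call can be near those shares. Of 8 copper transport and chaperone genes, which serve the other metal bound by metallothioneins, Cox17 rose (log2 fold change 0.80, adjusted p = 0.00757 by edgeR) and 0 fell, with Slc31a1, the copper importer, next at -0.34 (adjusted p = 0.111). Of the zinc-binding S100 genes, S100a6 rose (1.17, adjusted p = 0.000271), S100a8 was at -0.04 and S100a9 was not detected. Of 6 glucocorticoid receptor targets, 0 rose and 2 fell, Per1 (-1.36, adjusted p = 1.38e-05) and Tsc22d3 (-0.81, adjusted p = 0.00485), with a list median of -0.41. Of 7 NRF2 targets, Txnrd1 (0.74, adjusted p = 7.81e-05) and Slc7a11 (0.94, adjusted p = 0.000307) rose and Gclm fell, with a median of 0.29. Of 5 genes of the interleukin-6 and STAT3 list, Socs3 (2.98, adjusted p = 2.75e-09), Il6 (3.91, adjusted p = 9.58e-08) and Junb rose and Il4ra fell, with a median of 1.69.

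The genes whose profile over the 6 libraries was nearest to that of Mt1, among 5045 genes with a mean of at least 20 CPM, were Aph1a, Kank2, Nab2, Pip5k1c and Ehmt2, at a root mean square distance of 0.0358 to 0.0601 on the log2 scale. The nearest to Mt2 were Pi4k2a, Dnm2, Dido1, App and Cope, at 0.0360 to 0.0453. The distance between Mt1 and Mt2 themselves was 0.0955, which placed Mt2 at rank 59 from Mt1 and Mt1 at rank 122 from Mt2.

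**Figure D4:**
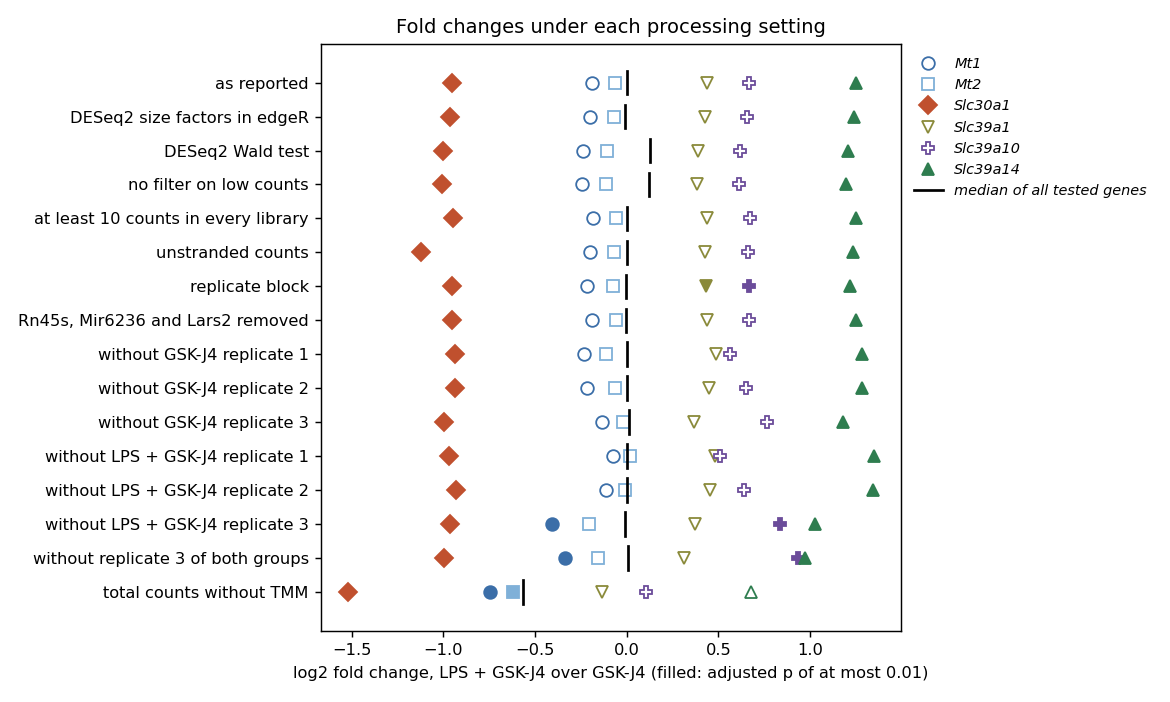
Log2 fold change of 6 of the genes (horizontal axis) under each processing setting (vertical axis), filled where the adjusted p was at most 0.01, with the median of all tested genes as a black bar. Slc30a1 is filled in every setting and Slc39a14 in all but the scaling by total counts, under which the median lies at -0.57, Slc39a1 lies at -0.14 and Mt1, Mt2 and Slc30a1 are filled below 0.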

How the data were processed

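PM from postnatal mice were treated in 2 groups of 3 libraries, with groups and replicate numbers taken from the titles. Per the submitters' notes and the study's methods, CASAVA 1.8.2, Trimmomatic 0.33 and STAR 2.5.1 were used with mm10, and the authors used DESeq2 for their own tests. The annotation used for counting is not given in the sources used here. The deposited tables hold raw counts of fragments per gene, without normalization, and the reverse-strand column was used, since 0.966% to 1.38% of assigned fragments lay on the other strand. Between 59.3% and 62.7% of uniquely aligned fragments lay outside annotated exons and entered no library size.

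Counts were scaled by TMM and tested with edgeR 4.0.16 (R 4.3.3, limma 3.58.1) by filterByExpr (minimum count 10, minimum total 15), robust quasi-likelihood fit without covariates and Benjamini-Hochberg adjustment over all genes tested. A gene passed at an adjusted p of at most 0.01. The common biological coefficient of variation was 0.133, and the fit was tested on simulated counts. Exon lengths, positions and overlaps are from GENCODE M21 and promoters from RefSeq. The alternatives were DESeq2 1.42.0 and its size factors, 2 other filters, unstranded counts, removal of ribosomal features, 2 other thresholds, a replicate block and each library left out. Total counts without TMM, and both libraries numbered 3 left out, were added after the data were seen.

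The members and lists were chosen with earlier results of these data known. The genes named are the 10 genes, the tested genes of their families, the 5 nearest profiles to Mt1 and to Mt2, and the 2 genes with the lowest adjusted p of each neighbouring list. The other called genes and list members named beside these were added after their values were seen. Figures were made in Python 3.11.15 with matplotlib 3.10.9.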

Additional observations from a re-analysis of the deposited data

How the results depend on the processing

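At an adjusted p of at most 0.01, 1406 genes changed (853 up, 553 down), of which 2 were among the 10. A threshold of 0.05 gave 2390 genes and 4 of the 10, and the added fold change of 1.5 on the log2 scale gave 381 and 0. With a replicate block, 2275 genes (1259 up, 1016 down) and 4 of the 10 passed, Slc39a1 at 0.43 (adjusted p = 0.00115) and Slc39a10 at 0.67 (adjusted p = 0.00501) in addition. The numbers share no stated litter or day, and the deviations of same-numbered libraries from their group means had r of -0.0102, 0.117 and 0.295 across genes. GSK-J4 replicates 1 and 2 each correlated best with another number (r of 0.0906 and 0.243). GSK-J4 replicate 3 correlated best with its own, the highest r of any pair. The numbers were not taken as pairs in the main fit, although these values do not settle whether they were. Without filter on low counts, 1093 genes rose and 858 fell, and DESeq2 had 687 and 568. Leaving out libraries gave 920 genes (without LPS + GSK-J4 replicate 2) to 1750 (without replicate 3 of both groups), and 2 to 4 of the 10, the 4 occurring in both settings without LPS + GSK-J4 replicate 3, where Mt1 and Slc39a10 passed as well. At 0.05, Slc39a1 and Slc39a10 each lost their calls with DESeq2 and under several single-library omissions. Total counts without TMM moved the median of all genes to -0.57 and gave 3709 genes (343 up, 3366 down) and 5 of the 10, all lower (Mt1, Mt2, Mtf1, Slc30a1 and Slc30a5). Under it Slc30a7 was at -0.37, Slc39a1 at -0.14 and Slc39a6 at -0.35, reversed in sign, but at 0.19, 0.43 and 0.22 relative to that median. Mt2 ranged from -0.21 to 0.019 when single libraries were left out, and turned positive only without LPS + GSK-J4 replicate 1. Apart from total counts, 133 of 140 values of the 10 genes kept direction and side of the threshold, 6 passed it newly and 1 reversed. Outside the 10, total counts gave Slc30a4 0.26, not past the test. With 32 to 99 counts a library for Slc39a14 and 41 to 80 for Mtf1, depth limits these genes more than the metallothioneins.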
